A study of Mus musculus with 9 samples.

Results

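Gap43, Bex1, Atp2b4, Kitl, Rgs17, Stmn4, Nrep, Hspb1 and Fxyd2 were followed through sensory neurons of the mouse trigeminal ganglion, to ask whether they vary together from neuron to neuron inside a class. These are 9 of the 21536 genes in the deposited Drop-seq table, and they were chosen from correlations and levels already measured in this table, so their values are given as a description and no test was made. Ganglia of wild type FVB/N mice, 3 to 6 weeks of age by the labels, were dissociated, with mice pooled in each of 9 runs, without any treatment or genetic change. Neurons were enriched on a Percoll gradient and by depletion of glia, so the proportions of cells are those of the isolation. The 6997 barcodes are not tied to a run and were treated as 1 pooled sample, which left no replicates for a comparison between classes. Differences between runs could thus not be told apart from differences between neurons. Of these barcodes, 3855 had 500 to 7500 genes, at least 3 of the 6 neuronal transcripts Tubb3, Scn9a, Snap25, Nefl, Nefm and Uchl1 and no Epcam, and 2631 of them had 2000 or more unique transcripts (UMIs).

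Inside these 2631 neurons, classes were taken by simple gates on UMIs. Mrgprd neurons (2 or more UMIs) numbered 337, Cd34 neurons (1 or more) 307 and Trpm8 neurons (2 or more) 210. Calca and Trpv1 neurons (5 or more of Calca and 1 or more of Trpv1) numbered 790, and Nefh neurons (5 or more of Nefh, no Trpv1) 616, whereas 684 neurons passed no gate. The gates overlapped, most of all between Trpm8 and Nefh with 120 shared neurons and between Cd34 and Nefh with 71. Other markers of each class, listed apart from the gates, were highest in their own class for 10 of 10 Mrgprd, 8 of 8 Cd34, 8 of 8 Trpm8, 7 of 8 Calca and Trpv1 and 8 of 9 Nefh genes. These lists were chosen with earlier results of the same data known, so the counts are no independent check of the gates. Median depth was 6378 UMIs in Mrgprd, 6387 in Cd34, 6684 in Trpm8, 4884 in Calca and Trpv1 and 6999 in Nefh neurons. A barcode sequence stood in 2 columns of the table in 6 cases, and 4 of those columns were in the 5 classes.

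A single axis from Gap43 to Hspb1 was not seen in every class at this depth. The opposition of Gap43 and its companions to Hspb1 and Fxyd2 was seen in full in Cd34 neurons. In Mrgprd neurons Gap43 opposed Fxyd2, whereas its rank correlation with Hspb1 was 0.09, and in Calca and Trpv1 neurons it was 0.06 with Hspb1 and -0.01 with Fxyd2. The set is therefore referred to below by its leading genes, Gap43 and Fxyd2.

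Gap43 encodes a phosphoprotein of growth cones and axon endings, and its transcript is a classical sign of axon growth in sensory neurons. Hspb1 encodes a small heat shock protein that binds unfolded proteins and cytoskeleton and is known in sensory neurons for its role in survival after axon injury. Fxyd2 encodes the gamma subunit of the sodium pump, a small membrane protein that tunes the affinity of the pump for its ions, and is known as a transcript of unmyelinated sensory neurons. Among the others, Stmn4 is a stathmin that destabilizes microtubules, Nrep is a small protein linked to neuronal regeneration, Bex1 is a small adaptor encoded on the X chromosome, Atp2b4 is a plasma membrane calcium pump, Kitl is the ligand of the receptor Kit, and Rgs17 shortens signalling by G proteins. In the GENCODE M21 annotation of GRCm38, Gap43 lies at chr16:42248442-42340651 on the minus strand and Fxyd2 at chr9:45399669-45410278, Hspb1 at chr5:135887919-135889563 and Stmn4 at chr14:66344296-66361680 on the plus strand. Rgs17 (chr10:5825663-5922400, minus) and Kitl (chr10:100015630-100100416, plus) share a chromosome, Atp2b4 lies at chr1:133699457-133801041 and Bex1 at chrX:136213972-136215513, both on the minus strand. A UMI count covers a whole gene, mostly from its 3′ end, and does not tell its transcripts apart.

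Promoter entries from RefSeq (GRCm38.p6) were at hand for 5 of the 9 genes, Bex1, Atp2b4, Kitl, Rgs17 and Hspb1. The 250 bases before the annotated start are shown for Rgs17 and Bex1, which rose with Gap43 in Cd34 neurons, and for Hspb1, which took the other direction there, each 5′ to 3′ on the strand of the gene. Capitals mark matches, on either strand, to GGGCGG (the Sp1 box), to TGANTCA (the AP-1 element) and to GAANNTTC (the core of heat shock elements). Rgs17 was read from chr10:5922401-5922650 on the minus strand, Bex1 from chrX:136215514-136215763 on the minus strand and Hspb1 from chr5:135887669-135887918 on the plus strand.
Rgs17: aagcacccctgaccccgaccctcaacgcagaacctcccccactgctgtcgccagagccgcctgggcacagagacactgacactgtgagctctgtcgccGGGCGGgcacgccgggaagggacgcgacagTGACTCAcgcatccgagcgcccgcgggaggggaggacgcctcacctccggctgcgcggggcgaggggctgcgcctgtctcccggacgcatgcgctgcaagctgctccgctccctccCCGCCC
Bex1: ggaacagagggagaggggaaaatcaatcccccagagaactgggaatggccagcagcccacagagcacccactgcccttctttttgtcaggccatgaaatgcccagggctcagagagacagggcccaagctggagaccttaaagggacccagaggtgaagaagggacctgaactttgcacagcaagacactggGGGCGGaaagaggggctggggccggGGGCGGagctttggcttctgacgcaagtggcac
Hspb1: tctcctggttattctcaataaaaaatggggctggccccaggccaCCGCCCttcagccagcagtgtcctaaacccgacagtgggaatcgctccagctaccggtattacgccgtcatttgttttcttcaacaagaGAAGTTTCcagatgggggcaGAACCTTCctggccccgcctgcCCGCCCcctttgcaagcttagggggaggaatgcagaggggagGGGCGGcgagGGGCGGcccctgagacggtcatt
Hspb1 held 4 matches to GGGCGG and 2 to GAANNTTC, Rgs17 held 2 to GGGCGG and 1 to TGANTCA, and Bex1 held 2 to GGGCGG. Over the 32841 promoter entries, windows of the same length held GGGCGG in 32.8%, GAANNTTC in 6.70% and TGANTCA in 6.75%. Among the 5 genes, Hspb1 was the only one with GAANNTTC in its window and Rgs17 the only one with TGANTCA. The window of Kitl held TATAAA, as did 12.4% of all windows, and none of the 5 held TGACGTCA, which 1.55% of all windows had. These are matches of letters, and binding was not measured.

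Levels of the 9 genes differed among classes, by 3.62-fold between the highest and the lowest class for Bex1 and by 87.1-fold for Fxyd2. Levels are given as CPM, in which the counts of a gene are scaled to the summed depth of its class, with exact Poisson 95% intervals that cover counting error only. Gap43 was highest in Calca and Trpv1 neurons at 1811 CPM (1777 to 1847), followed by 940.4 in Nefh, 766.5 in Trpm8, 368.3 (347.6 to 389.9) in Mrgprd and 341.8 (322 to 362.5) in Cd34 neurons, and the intervals of the last pair overlapped. By the median neuron, Trpm8 stood above Nefh neurons, at 760.7 against 463.3 CPM, with a UMI in 89.5% against 76.3%, and 120 neurons were in both gates. Fxyd2 was highest in the classes with the least Gap43, with 5138 CPM in Mrgprd, 4661 in Cd34, 1475 in Nefh, 1358 in Calca and Trpv1 and 59.0 (49.0 to 70.5) in Trpm8 neurons, and no neighbours in this order had overlapping intervals. The median neuron gave the reverse order for Nefh and for Calca and Trpv1 neurons, at 0 against 608.3 CPM. A UMI of Fxyd2 was seen in 47.9% of the former and 80.9% of the latter. The Nefh gate shared 57 neurons with the Mrgprd and 71 with the Cd34 gate. Hspb1 had yet another order. It was highest in Cd34 neurons at 607.8 CPM (581.3 to 635.2) and lowest in Mrgprd neurons at 67.3 (58.6 to 76.9), with 359.8 in Nefh, 328 in Calca and Trpv1 and 186.2 in Trpm8 neurons. The classes with the most Fxyd2 thus had the most and the least Hspb1.

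The companions of Gap43 did not share 1 order of classes either. Bex1, Atp2b4, Rgs17 and Stmn4 were highest in Calca and Trpv1 neurons, at 171.7, 200.6, 184.4 and 209.1 CPM, as was Gap43. Kitl and Nrep were highest in Nefh neurons, at 118.8 (110.8 to 127.2) and 89.4 (82.5 to 96.7) CPM, and Kitl was lowest in the Calca and Trpv1 neurons that led the others, at 25.5 CPM. The lowest class was Cd34 for Rgs17 (43.1 CPM), Nefh for Bex1 (47.4) and Atp2b4 (46.9), Mrgprd for Stmn4 (15.9) and Trpm8 for Nrep (18.9). For Bex1, Atp2b4, Kitl, Stmn4 and Nrep, 2 of the 4 neighbouring pairs of classes had overlapping intervals, and for Rgs17 1 pair.

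**Figure D1:**
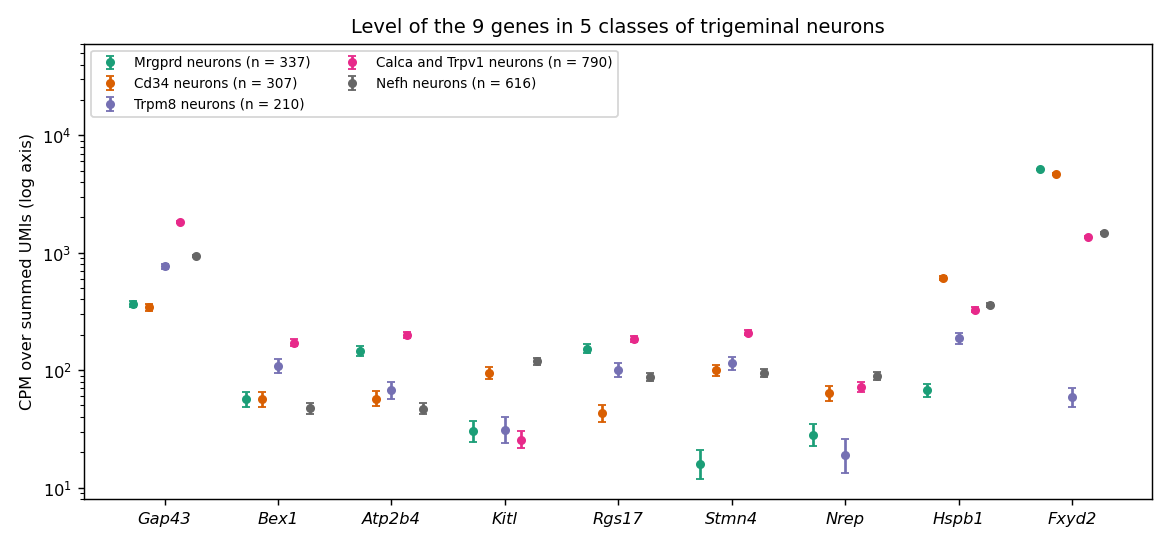
Level of the 9 genes in each class of neurons, as CPM over the summed UMIs of the class on a log axis, with exact Poisson 95% intervals that cover counting error only. Fxyd2 spans 59.0 to 5138 CPM and is highest where Gap43 is lowest (Mrgprd and Cd34 neurons), and Hspb1 is highest in Cd34 and lowest in Mrgprd neurons.

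Most of these transcripts came at 0 to a few UMIs per neuron, and only Gap43, Hspb1 and Fxyd2 were often counted more deeply. In Cd34 neurons, Gap43 had a UMI in 38.1% (Clopper-Pearson 95% interval 32.7 to 43.8%) of neurons and reached 171 UMIs in a neuron, Hspb1 had one in 77.5% with a median of 444 CPM, and Fxyd2 in 93.2% with quartiles of 1079 and 7926 CPM. In Mrgprd neurons, the share was 57.9% for Gap43, 24.3% for Hspb1 and 98.2% for Fxyd2, whose quartiles were 1230 and 8220 CPM. Stmn4 was seen in 8.61% of Mrgprd neurons and Nrep in 16.2% of Trpm8 neurons, which leaves little to correlate there.

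Free RNA in the droplets gives UMIs to cells that do not express a gene, so the levels were set beside those of 3 kinds of barcode outside the neurons, called by glial, haemoglobin and pituitary transcripts. Their median depth was 1464, 1360 and 1657 UMIs, below that of the classes. Gap43 was at 21.3 to 63.1 CPM and Rgs17 at 4.51 to 17.7 CPM in these barcodes, below every class of neurons. Fxyd2 was at 29.3 CPM in glia-like, 37.8 in pituitary-like and 87.5 in red blood cell-like barcodes, with a UMI in 11.6% of the last, so that its 59.0 CPM in Trpm8 neurons, with a UMI in 32.4%, lay within their range. Hspb1 was at 11.3 CPM in glia-like, 63.9 in red blood cell-like and 65.0 in pituitary-like barcodes, and its 67.3 CPM in Mrgprd neurons was close to the levels in 2 of these 3. Without the barcode with the most Hspb1, which held 29 of the 55 UMIs of the pituitary-like set, that set was at 31.1 CPM. A UMI of Hspb1 was seen in 24.3% of Mrgprd neurons and in 0.803% of glia-like, 5.02% of red blood cell-like and 4.06% of pituitary-like barcodes, which were shallower. Bex1 reached 48.6 CPM in red blood cell-like barcodes, against 47.4 to 56.7 CPM in its 3 lowest classes, and Kitl 23.6 CPM, against 25.5 to 31.0 CPM in its 3 lowest. Nrep was at 28.4 CPM in pituitary-like and 119.4 CPM (89.5 to 156.2) in glia-like barcodes, the latter above every class of neurons. Some of the 9 genes are abundant in these other cells. Stmn4 was at 691.7 CPM in glia-like, Bex1 at 279.9 CPM in pituitary-like and Atp2b4, a pump of red blood cell membranes too, at 126.4 CPM in red blood cell-like barcodes. Of the 50-base words in the transcripts of Hspb1, 48.8% also occur in the pseudogene Hsp25-ps1, and 21.1% of those of Bex1 occur in Bex4 or Bex2, so their counts depend on how shared reads were assigned.

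Within Cd34 neurons, 32 of the 36 pairs of genes had an absolute Spearman rho of 0.2 or more, against 1.57% of 9872346 pairs of 4444 genes seen in 20% or more of the neurons of every class. Gap43, Bex1, Atp2b4, Kitl, Rgs17, Stmn4 and Nrep were positively related in all 21 of their pairs, and each was negatively related to both Hspb1 and Fxyd2, in 14 of 14 pairs, where 77.8% of all gene pairs were positive and 22.2% negative. A rho of 0.2 or more was reached by 19 pairs (background 1.52%) and one of -0.2 or less by 13 (background 0.0557%). These correlations run over 307 neurons of 1 pooled sample that share libraries, differ in depth and may differ in subtype, and so they carry no p-value. Only Gap43, Bex1, Rgs17, Hspb1 and Fxyd2 were common enough to be among the 4444 genes, and the background is hence that of genes detected more often than the other 4.

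Gap43 and Fxyd2 had the lowest rho of the set in Cd34 neurons, -0.59. Of the 4443 other genes, none was below Fxyd2 in its correlation with Gap43, and none below Gap43 in its correlation with Fxyd2. Rgs17 had the highest rho with Gap43 within the set, 0.45, and stood at rank 3 of all genes, behind a top value of 0.47 for 6330403K07Rik. Hspb1 and Fxyd2 rose together with a rho of 0.45, and Gap43 and Hspb1 were opposed at -0.34. With Gap43, rho was 0.37 for Kitl, 0.33 for Bex1, 0.32 for Atp2b4, 0.30 for Nrep and 0.24 for Stmn4. The 4 pairs short of the limit all held Kitl or Stmn4: Kitl with Hspb1 at -0.16, Kitl with Stmn4 at 0.12, Kitl with Atp2b4 at 0.08 and Rgs17 with Stmn4 at 0.17. Just past it were Bex1 with Kitl at 0.21 and Nrep with Hspb1 at -0.21.

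**Figure D2:**
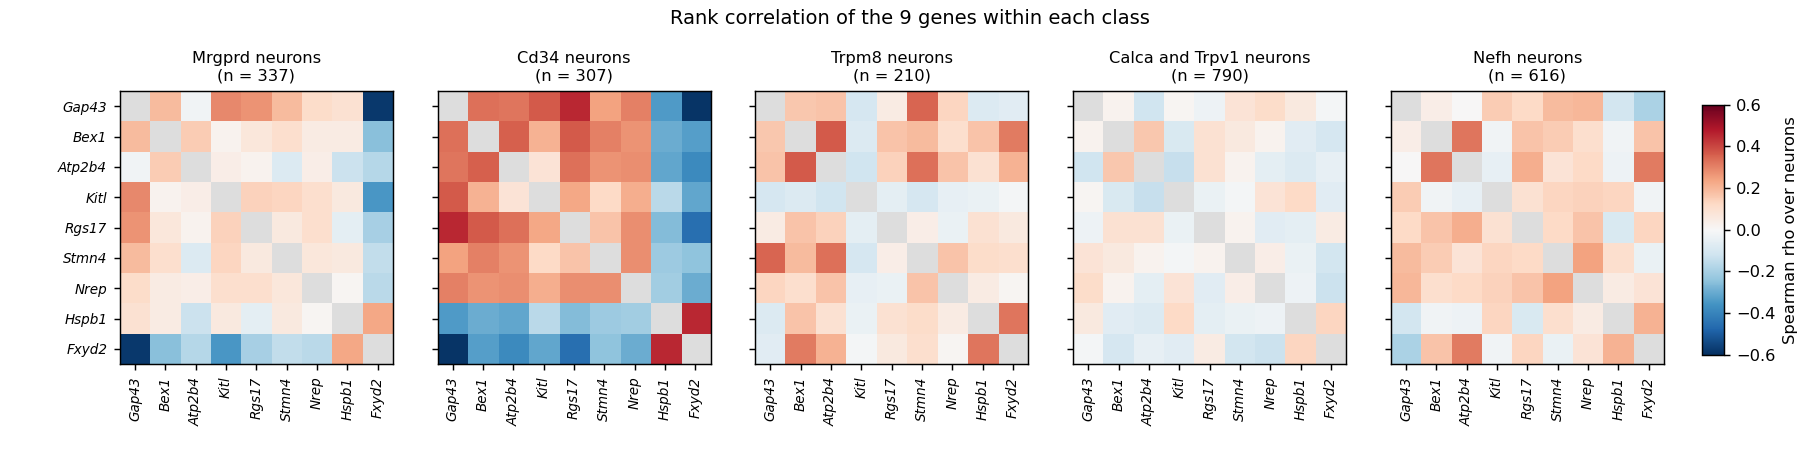
Spearman rho of the CPM of each pair of the 9 genes over the neurons of each class, from blue (negative) to red (positive), with the diagonal in grey. In Cd34 neurons 7 genes form a red block against Hspb1 and Fxyd2, in Mrgprd neurons Fxyd2 alone opposes Gap43 (rho of -0.58), and in Calca and Trpv1 neurons no pair reaches 0.2, as for all but 0.0456% of the pairs of 4444 genes.

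Depth mattered in Cd34 neurons for the number of pairs but less for their sign. When each Cd34 neuron was thinned at random to 2000 UMIs, 7 of the 36 pairs reached 0.2 (background 0.0909%), and none of these 7 was among the genes that rise with Gap43. Of the pairs among Gap43 and its companions 19 of 21 were still positive, with a median of 0.08, and all 14 pairs with Hspb1 and Fxyd2 were negative, with a median of -0.18, where 49.3% of all gene pairs were positive. Gap43 with Fxyd2 then came to -0.48 and Gap43 with Hspb1 to -0.20. With at least 4000 UMIs per neuron the number was 35 (background 1.46%).

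The split is plain when Cd34 neurons are divided by Gap43. The 101 neurons at or above percentile 67 of Gap43 had 109.7 CPM or more, with a median depth of 8158 UMIs, and the 190 neurons at or below percentile 33 had no Gap43 UMI and a median of 5949. Fxyd2 was at 1650 CPM in the first and 6787 in the second set, a ratio of 0.243 (0.232 to 0.255, counting error only). Hspb1 was at 417.3 against 754.4 CPM, a ratio of 0.553 (0.499 to 0.613). Rgs17 moved most among the companions of Gap43, with 86.2 against 11.6 CPM, or 7.45-fold (4.59 to 12.7). The others lay 5.18-fold (Atp2b4), 3.87-fold (Bex1), 3.74-fold (Kitl), 2.72-fold (Nrep) and 2.65-fold (Stmn4) higher where Gap43 was high.

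Other transcripts show that these sets of Cd34 neurons differ in more than the 9 genes. Calca, the precursor of the peptide CGRP, was at 758.1 against 47.5 CPM, Nefh, the heavy neurofilament of large myelinated neurons, at 1352 against 225.8, and Fxyd7, another regulator of the sodium pump, 38.9-fold higher in the Gap43-high set. Cd34 itself was at 187.1 against 405.3 CPM and Scin, an actin-severing protein found in this class, at 15.5 against 98.4, whereas Fam19a4 was close, at 379.9 against 394.9. Markers of Nefh neurons, 8 of 9 of them higher in the Gap43-high set, summed to 2030 CPM there and to 765.4 in the other set, with none at 0 in either. The 10 markers of Mrgprd neurons summed to 305.9 against 108.3 CPM with 9 higher, the 15 glial markers to 2854 against 3496 CPM with 9 higher, and the 8 pituitary markers to 676.8 against 1286 CPM with 1 higher. The 6 endothelial markers summed to 15.5 against 51.5 CPM with 1 higher, but had a rho of 0.09 with Gap43 and -0.14 with Fxyd2. They were at 34.2 CPM in all Cd34 neurons, compared with 6.49 to 9.86 CPM in the other classes. The 8 markers of Trpm8 neurons summed to 1834 against 3157 CPM with 5 higher, and had a rho of -0.39 with Gap43 and 0.42 with Fxyd2. The 8 markers of Calca and Trpv1 neurons summed to 719.1 against 929.3 CPM with 7 higher, and had -0.23 with Gap43, 0.36 with Hspb1 and 0.38 with Fxyd2. Markers of the Cd34 class itself summed to 3187 against 3685 CPM, with 2 of 8 higher. The part of the Trpm8 and endothelial lists in the result was not tested.

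Cd34 neurons were also restricted by the other gates and by Calca and Nefh. In the 223 Cd34 neurons that passed no other gate, Gap43 with Fxyd2 was -0.46 and Gap43 with Hspb1 -0.34, all 21 positive and 14 negative signs were as before, and 24 pairs reached 0.2 (background 1.72%). In the 129 neurons with at most 1 UMI each of Calca and Nefh, Gap43 with Fxyd2 was -0.44 and Gap43 with Hspb1 -0.32, 20 of the 21 and 14 of the 14 signs were as before, and 17 pairs reached 0.2 (background 3.59%). Among the latter, 26 neurons with Gap43 and 103 without were at 2968 and 6627 CPM of Fxyd2, a ratio of 0.448 (0.400 to 0.500), and at 445.6 and 691.7 CPM of Hspb1, a ratio of 0.644 (0.474 to 0.860). The median depth was 3914 UMIs with and 4667 without Gap43.

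Mrgprd neurons showed the opposition of Gap43 and Fxyd2, but most other pairs were weaker than in Cd34 neurons. The rho of -0.58 came close to that of Cd34 neurons, and only Sncg, a synuclein, was lower among 4443 genes with Gap43, at -0.59, whereas Meg3, a long noncoding RNA, was highest at 0.61. Gap43 and Hspb1 had a rho of 0.09. In all, 6 of 36 pairs reached 0.2 (background 0.757%), 3 of them positive (background 0.722%) and 3 negative (background 0.0350%). The positive pairs were Gap43 with Kitl (0.29), Gap43 with Rgs17 (0.27) and Hspb1 with Fxyd2 (0.23), and the negative ones were Fxyd2 with Gap43, with Kitl (-0.35) and with Bex1 (-0.25), each with the same sign as in Cd34 neurons. Of the pairs among the 7 genes 19 of 21 were positive, and of those with Hspb1 or Fxyd2 9 of 14 were negative, where 75.6% of all gene pairs were positive and 24.4% negative. Pairs among the 7 genes had a median rho of 0.10, against 0.28 in Cd34 neurons, where all gene pairs had 0.04 and 0.05, and the smallest was -0.08 for Atp2b4 with Stmn4. After thinning to 2000 UMIs, 13 of these 21 pairs were positive, with a median of 0.03, where 48.8% of all gene pairs were positive. Of the pairs with Hspb1 or Fxyd2, 10 of 14 were then negative. With total UMIs, mitochondrial and haemoglobin shares taken out by partial rank correlation, 16 of the 21 were positive, with a median of 0.05.

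In the Gap43-high set of 111 Mrgprd neurons, Fxyd2 was at 2003 CPM, compared with 7419 in the 142 neurons without Gap43, a ratio of 0.270 (0.257 to 0.284). Kitl was at 71.1 against 7.68 CPM, or 9.26-fold (4.60 to 21.2), but rests on 66 and 9 UMIs, and Stmn4, at 6.50-fold (2.85 to 17.3), on 36 and 7. Rgs17 was at 221 against 107.5 CPM, Bex1 at 90.6 against 45.2 and Nrep at 43.1 against 21.3, while the interval of Atp2b4 (0.896 to 1.42) included 1. Hspb1 was higher and not lower in the Gap43-high set, at 102.4 against 53.8 CPM, 1.91-fold (1.37 to 2.66). In the 95 neurons with at most 1 UMI each of Calca and Nefh this did not hold, with 29.1 CPM of Hspb1 in the 45 with Gap43 and 31.1 in the 50 without, a ratio of 0.934 (0.234 to 3.42) that rests on 5 and 7 UMIs. There the intervals of Bex1 (ratio of 1.31), Atp2b4 (0.890), Kitl (4.58), Stmn4 (2.62) and Nrep (1.31) also included 1, while Fxyd2 had a ratio of 0.366 (0.327 to 0.410) and Rgs17 of 2.92 (1.61 to 5.52). Kitl rests on 7 and 2 UMIs (0.871 to 45.1) and Stmn4 on 4 and 2 (0.375 to 28.9), too few to tell a loss from a gain. The levels of Hspb1 stand beside 11.3 to 65.0 CPM in the 3 kinds of barcode outside the neurons. The Gap43-high and Gap43-free Mrgprd neurons also differed in other genes. Prkcq, a protein kinase C, was at 75.5 against 376.3 CPM and Otoa at 42.0 against 129.7, whereas Mrgpra1 was 2.53-fold higher with high Gap43 and the interval of Agtr1a (0.546 to 1.05) included 1. The 8 markers of Calca and Trpv1 neurons summed to 1756 against 960.8 CPM with 7 higher, the 9 markers of Nefh neurons to 222.1 against 85.3 CPM with 8 higher, and the 10 markers of the Mrgprd class itself to 1759 against 2406 CPM with 2 higher. Markers of Cd34 neurons had a rho of -0.47 with Fxyd2 and 0.15 with Gap43 here. Beyond the gates and the restriction by Calca and Nefh, the part of these lists in the result was not tested.

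**Figure D3:**
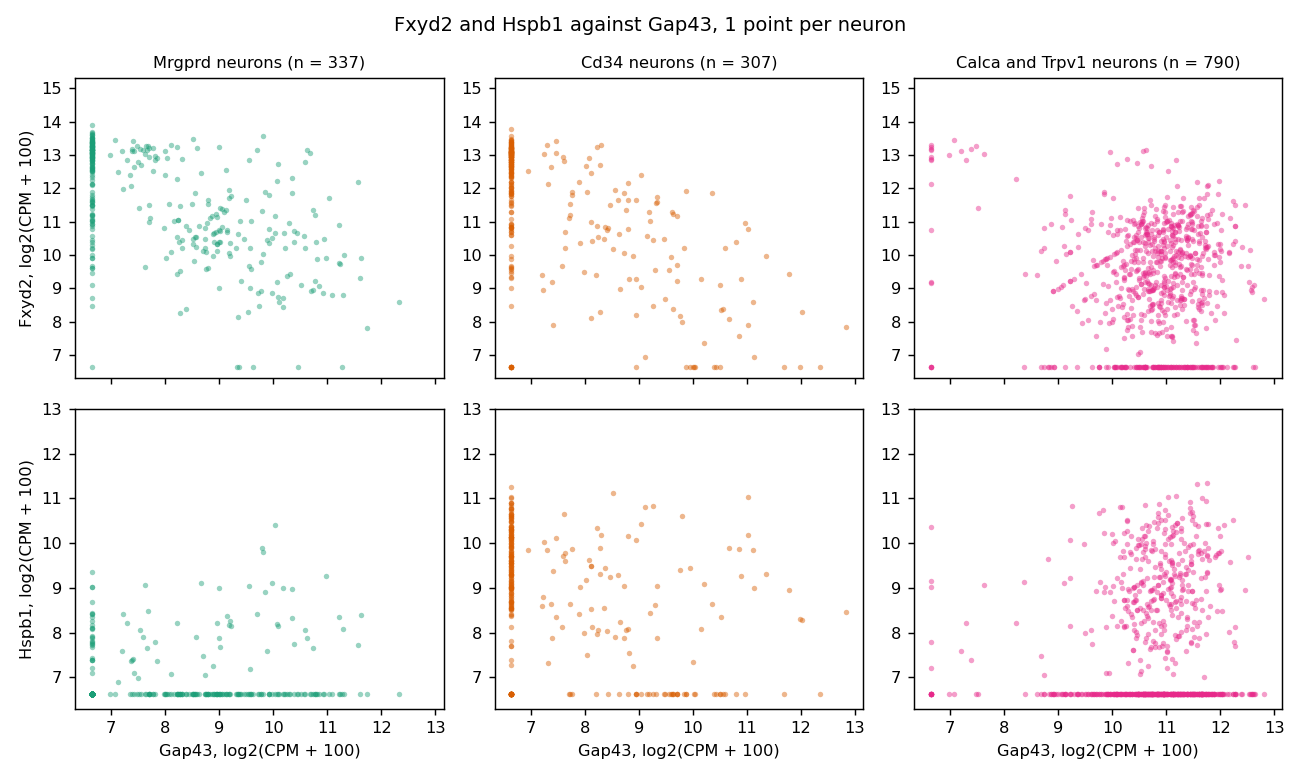
Fxyd2 (top) and Hspb1 (bottom) against Gap43 as log2(CPM + 100), each point being a neuron of the class named above the column. Neurons with no UMI lie on the straight edges at the left and bottom. Fxyd2 falls with Gap43 in Mrgprd and Cd34 neurons (rho of -0.58 and -0.59) and not in Calca and Trpv1 neurons (-0.01), and Hspb1 falls with Gap43 in Cd34 neurons (-0.34).

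Quality measures moved with Gap43 and Fxyd2 in Mrgprd neurons. The mitochondrial share of UMIs had a rho of 0.49 with Gap43 and -0.56 with Fxyd2, with a median of 0.949% in the Gap43-high and 0.616% in the Gap43-free set. The share of ribosomal protein transcripts had -0.19 and 0.49, and the summed glial markers 0.33 and -0.44, at 2632 against 1828 CPM with 10 of 15 genes higher and 1 and 2 of them at 0. With total UMIs, mitochondrial and haemoglobin shares taken out by partial rank correlation, Gap43 with Fxyd2 was -0.42. In the 95 Mrgprd neurons with at most 1 UMI each of Calca and Nefh it was -0.56. In Cd34 neurons, mitochondrial share had -0.14 and 0.04 with the same genes, ribosomal share -0.11 and 0.28, and glial markers -0.18 and 0.24, while Hspb1 had 0.21 with ribosomal and 0.23 with haemoglobin share. The share of Gh and Prl, hormones of the adjacent pituitary, had 0.31 with Hspb1 in Cd34 neurons and -0.21 with Gap43 and 0.39 with Fxyd2 in Mrgprd neurons. Whether these UMIs came from free RNA or from droplets that also held a pituitary cell was not tested. When the ribosomal and the Gh and Prl shares were taken out as well, Gap43 with Fxyd2 was -0.42 in Mrgprd and -0.58 in Cd34 neurons, and Gap43 with Hspb1 was -0.31 in Cd34 neurons. Of the 36 pairs, 4 in Mrgprd (background 0.0665%) and 23 in Cd34 neurons (background 0.22%) then reached 0.2. Neurons of both classes with much Fxyd2 and mostly no Gap43 stood in long stretches of the listed order. Between them lay stretches with less Fxyd2 and more often Gap43, and in Cd34 neurons with less Hspb1. Whether these stretches are separate runs, and their part in the opposition of Gap43 to Fxyd2 and Hspb1, was not tested.

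In Trpm8 neurons, Gap43 was hardly related to Hspb1 (-0.08) or Fxyd2 (-0.07), and only 64 of 210 neurons had UMIs of both Gap43 and Fxyd2 while 124 had Gap43 alone. Here 6 pairs reached 0.2 (background 2.49%), all of them positive (background 2.23%). They joined Bex1 with Atp2b4 (0.37), Gap43 with Stmn4 (0.35), Atp2b4 with Stmn4 (0.33), Hspb1 with Fxyd2 (0.32), Bex1 with Fxyd2 (0.31) and Atp2b4 with Fxyd2 (0.21). Bex1 and Atp2b4 ran with Fxyd2 here and against it in Cd34 neurons. The share of ribosomal protein transcripts had a rho of 0.44 with Bex1, 0.39 with Atp2b4 and 0.35 with Fxyd2 in these neurons, whose Fxyd2 was within the range of the barcodes outside the neurons. In the partial rank correlation that takes out this share too, 4 pairs reached 0.2 (background 0.821%), and Bex1 with Fxyd2 was 0.15 and Atp2b4 with Fxyd2 0.02. Markers of Nefh neurons had a rho of -0.50 with Bex1 and -0.47 with Atp2b4 here, and summed to 1031 CPM in the Gap43-high and 1985 in the Gap43-low neurons, and 141 of the 210 neurons passed another gate as well. Markers of Calca and Trpv1 neurons had a rho of 0.36 with Bex1 and 0.44 with Atp2b4, and summed to 3706 against 2092 CPM with 6 of 8 higher, and the part of both lists was not tested. Among the 69 neurons that passed no other gate, Gap43 with Hspb1 was -0.34, and 10 pairs reached 0.2, where the background was 12.4%. Between the 69 neurons with high and the 69 with low Gap43, Atp2b4 was 4.96-fold, Stmn4 4.60-fold, Nrep 3.44-fold, Bex1 2.96-fold and Rgs17 2.19-fold higher with high Gap43 in summed UMIs, and the interval of Kitl (0.321 to 1.32) included 1. Nrep rests on 20 and 9 UMIs and Rgs17 on 82 and 58, and Rgs17 was seen in 49.3% of both sets and had a rho of 0.05 with Gap43.

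Calca and Trpv1 neurons, the class with the most Gap43 and the most neurons, had no pair at an absolute rho of 0.2. The count was 0 of 36 (background 0.0456%) in either direction (background 0.0400% for positive and 0.00559% for negative pairs), and rho ran from -0.14 for Atp2b4 with Kitl to 0.16 for Bex1 with Atp2b4. Of the pairs among the 7 genes 13 of 21 were positive, with a median of 0.02, and of those with Hspb1 or Fxyd2 11 of 14 were negative, with a median of -0.06. Of all gene pairs in this class 83.1% were positive and 16.9% negative, with a median of 0.04, above that of the 7 genes. Gap43 with Fxyd2 was -0.01 and with Hspb1 0.06, and 628 of 790 neurons had UMIs of both Gap43 and Fxyd2. Summed over neurons, Fxyd2 was nevertheless at 912.2 CPM in the Gap43-high and 2042 in the Gap43-low neurons, a ratio of 0.447 (0.421 to 0.474) between sets of 261 neurons each. Fxyd2 was unevenly spread in this class, with a median of 608.3 CPM and up to 323 UMIs in a neuron, and 33 of the neurons passed the Mrgprd gate too. The 10 markers of Mrgprd neurons summed to 541 CPM in the Gap43-low and 199.2 in the Gap43-high neurons, with 1 higher in the latter. The 8 markers of Trpm8 neurons summed to 1174 and 474.9 CPM with 0 higher, and the 8 pituitary markers to 1112 and 548.2 CPM with 3 higher, and the part of these lists was not tested. With at least 4000 UMIs per neuron, 3 pairs reached an absolute rho of 0.2 (background 0.131%). As a Pearson correlation corrected for counting noise, Gap43 with Fxyd2 was -0.2. Where a gene is seen at a few UMIs, a rho near 0 at this depth does not show that the genes are unrelated.

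Nefh neurons had 5 pairs at 0.2 or more (background 2.39%), all positive (background 2.14%). These were Bex1 with Atp2b4 (0.32), Atp2b4 with Fxyd2 (0.31), Nrep with Stmn4 (0.24), Atp2b4 with Rgs17 (0.22) and Hspb1 with Fxyd2 (0.21). Markers of Nefh neurons had a rho of -0.36 with Bex1, -0.48 with Atp2b4 and -0.42 with Fxyd2 here. With Atp2b4 and Fxyd2 in turn, markers of Mrgprd neurons had 0.32 and 0.39, glial markers 0.30 and 0.42, mitochondrial share -0.30 and -0.37 and total UMIs 0.29 and 0.42. After thinning to 2000 UMIs, 1 pair reached an absolute rho of 0.2 (background 0.0902%), a negative one with Hspb1 or Fxyd2. With total UMIs, mitochondrial and haemoglobin shares taken out, 2 pairs did (background 0.596%), 1 positive among the 7 genes and 1 negative with Hspb1 or Fxyd2. The part of the class markers was not tested beyond the gates. Gap43 had -0.19 with Fxyd2 and -0.11 with Hspb1, and the first of these was 0.03 in the 372 neurons that passed no other gate. UMIs of Fxyd2 were seen in 47.9% of all Nefh neurons, and their summed level was 460.6 CPM in the 203 Gap43-high and 3159 in the 203 Gap43-low neurons, with markers of Cd34 neurons at 864.3 and 1796 CPM and 0 of 8 of them higher in the former. Markers of Mrgprd neurons were at 237.2 and 512.4 CPM with 2 of 10 higher. Those of Calca and Trpv1 neurons were at 1530 and 841.6 CPM with 7 of 8 higher, and glial markers at 2783 and 1928 CPM with 12 of 15 higher. In neurons of no class, 5 pairs reached 0.2 (background 0.166%). Gap43 with Bex1 (0.25), with Rgs17 (0.22) and with Atp2b4 (0.21) were the 3 positive pairs (background 0.157% of all pairs, and 1.73% of genes with Gap43). Gap43 with Fxyd2 (-0.29) and Stmn4 with Fxyd2 (-0.30) were the 2 negative ones (background 0.00884% of all pairs, and 0.473% of genes with Gap43), and Gap43 with Hspb1 was 0.03. These neurons mix classes. Markers of Calca and Trpv1 neurons had a rho of 0.49 with Gap43, 0.21 with Bex1 and 0.29 with Atp2b4 among them, and markers of Cd34 neurons -0.32 with Gap43 and 0.35 with Fxyd2, and their part was not tested.

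**Figure D4:**
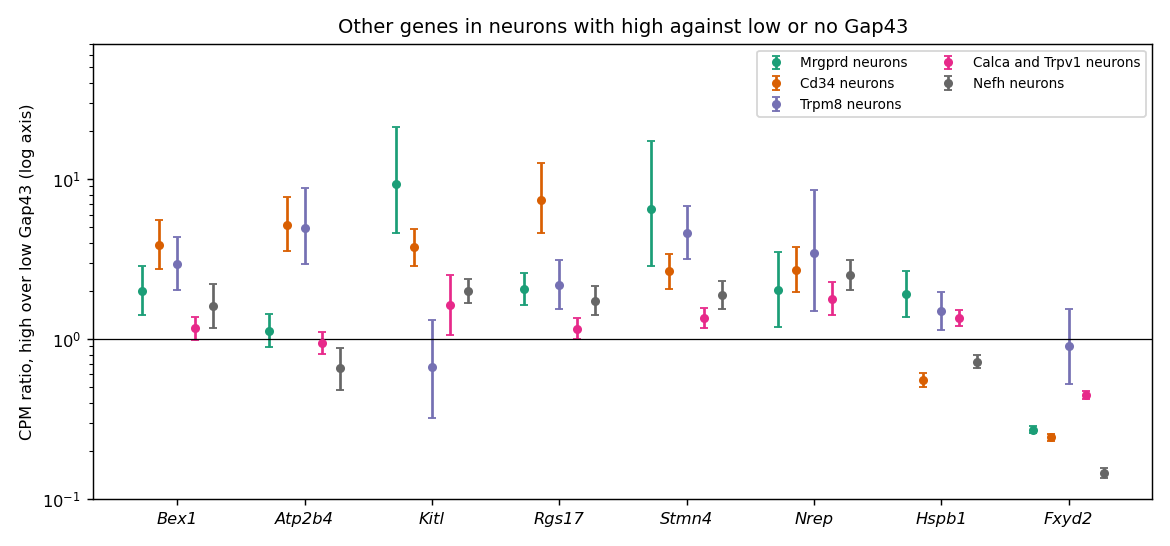
Ratio of the CPM of each gene in neurons at or above percentile 67 of Gap43 to that in neurons at or below percentile 33, by class and on a log axis, with exact 95% intervals that cover counting error only. Fxyd2 lies below 1 with its whole interval in 4 classes, and the interval includes 1 in Trpm8 neurons, whereas Hspb1 lies below 1 in Cd34 (0.553) and Nefh (0.722) neurons and above 1 in the other 3 classes.

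Across classes, 3 pairs had a rho of 0.1 or more in each of the 5 (background 0.438% of the 9872346 pairs), and none of them was Gap43 with Hspb1 or with Fxyd2. Hspb1 with Fxyd2 had a rho of 0.23 in Mrgprd, 0.45 in Cd34, 0.32 in Trpm8, 0.13 in Calca and Trpv1 and 0.21 in Nefh neurons. Bex1 with Atp2b4 ran from 0.15 to 0.37, and Gap43 with Nrep from 0.11 to 0.30. Hspb1 also rose with total UMIs, at 0.19 to 0.31 in these classes, and Fxyd2 at 0.08 to 0.42. The first principal component of the 9 genes held 34.7% of their variance in Cd34, 24.7% in Mrgprd, 23.9% in Trpm8, 19.0% in Nefh and 15.8% in Calca and Trpv1 neurons, where an average component of 9 holds 11.1% and a first component more than that also for unrelated genes. Its weights had Gap43 at 0.42 against Hspb1 at -0.34 and Fxyd2 at -0.43 in Cd34 neurons. In Mrgprd neurons they were 0.54, -0.03 and -0.55, in Nefh neurons 0.51, -0.23 and -0.27 and in Calca and Trpv1 neurons 0.21, -0.36 and -0.46, where the second component held nearly as much (15.4%). In Trpm8 neurons all 3 had the same sign (0.31, 0.25 and 0.36).

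Genes of axon growth and the cytoskeleton moved with Gap43 in several classes. Of 21 such genes seen often enough, a rho with Gap43 of 0.2 or more was found for 10 in Mrgprd (1.51% of 4443 genes), 11 in Cd34 (3.22%), 4 in Trpm8 (0.878%), 2 in Calca and Trpv1 (0.0675%) and 11 in Nefh neurons (1.78%). Their median rho was 0.14, 0.21, 0.10, 0.06 and 0.22 in this order, where the median of all genes lay between -0.04 and 0.03. Stmn2, a stathmin of growing axons, had 0.31, 0.41, 0.40, 0.26 and 0.45, and Dpysl3, a collapsin response mediator, 0.50, 0.34, 0.29, 0.30 and 0.41. The only gene of the list at -0.2 or less was Atf3, a transcription factor induced by axon injury, which ran against Gap43 at -0.34, -0.17, -0.16, -0.10 and -0.23.

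Of 14 heat shock proteins and chaperones other than Hspb1, 0 reached 0.2 with Gap43 in a class, where 0.0675 to 3.22% of all genes did. A rho of -0.2 or less was found for 4 in Mrgprd (1.62% of genes), 2 in Cd34 (1.82%), 1 in Trpm8 (3.83%), 1 in Calca and Trpv1 (0.0675%) and 0 in Nefh neurons (0.855%). Their median rho was -0.07, -0.04, -0.09, -0.01 and -0.01 in the order above, beside 0.00, 0.03, -0.04, -0.03 and 0.00 for all genes. The constitutive chaperone Hspa8 had -0.24, -0.20, -0.09, -0.21 and -0.06, Hsp90ab1 -0.32, -0.31, 0.14, 0.03 and 0.08, and Hsp90aa1, the lowest of the list in Mrgprd neurons, -0.45, 0.06, 0.01, -0.13 and -0.02.

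Relatives of the other genes were set against Gap43, and not against the gene they are related to. Fxyd7 rose with Gap43 in Mrgprd (0.42), Cd34 (0.45) and Nefh neurons (0.50), opposite to Fxyd2, and the pump subunits Atp1b1 and Atp1b3 had values of -0.35 to 0.08. Rgs10 ran against Gap43, at -0.47 in Mrgprd and -0.38 in Cd34 neurons, opposite to Rgs17, whereas Rgs4 had -0.23 and -0.11 and Rgs11 0.07 and 0.14. The calcium pump Atp2b1, a relative of Atp2b4, stayed between -0.06 and 0.16. Of 4 relatives of Bex1, only Bex2 reached 0.2 with Gap43, in Trpm8 neurons (0.26, as did 0.878% of all genes). Of 5 genes of Kit signalling, only Pik3r1 reached 0.2, in Cd34 (0.22, as did 3.22%) and Trpm8 neurons (0.25).

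Runx1, a transcription factor of nonpeptidergic neurons, fell with Gap43 in Mrgprd (-0.24) and Nefh neurons (-0.29). Of the 5 neurofilament and peripherin genes, 1 reached 0.2 in Mrgprd (Nefh at 0.25, background 1.51%) and 2 in Cd34 neurons (Nefh at 0.37 and Nefm at 0.25, background 3.22%), and 1 was at -0.2 or less, Prph in Trpm8 neurons (-0.23, background 3.83%), where Nefh had -0.18. Of 7 immediate early genes, Fos was at -0.2 or less with Gap43, at -0.26 in Mrgprd (background 1.62%) and -0.22 in Trpm8 neurons (background 3.83%), and 0 were at 0.2 or more, as were 0.0675 to 3.22% of all genes over the classes.

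When neurons were ordered by the rank of Gap43 minus the rank of Hspb1, 129 of 4439 genes kept the sign of Gap43 in all 5 classes and 1335 that of Hspb1. This order itself had a rho with total UMIs of -0.20 in Mrgprd, -0.03 in Cd34, -0.28 in Trpm8, -0.23 in Calca and Trpv1 and -0.22 in Nefh neurons, and the part of depth in these counts was not tested. Among those with the largest smallest value on the side of Gap43 were Stmn2 (0.19 to 0.54 over the classes), Dpysl3 (0.18 to 0.50), Atxn7l3b, Tuba1a, Nras, Ybx1, Crmp1, Lgals1, Ddah2 and Fam102b, and no gene on this side was at 0.2 or more in all classes. On the other side stood Hspa8 (-0.29 to -0.21), the glycolytic enzymes Aldoa (-0.33 to -0.21) and Gapdh (-0.35 to -0.19), Atf3 (-0.43 to -0.20), Ubb, Gh, Iscu, Ftl1, Rpl35a, Eif4a2, Egr1 and Rpl10. Gh, growth hormone, is not a neuronal transcript, and its presence in this list sits beside the rho of Hspb1 with the share of Gh and Prl given above. Of the 9 genes, Fxyd2 was the one with the same sign in all 5 classes on the side of Hspb1, from -0.63 in Cd34 to -0.10 in Calca and Trpv1 neurons. Stmn4 and Nrep were positive in all 5 classes, at 0.06 to 0.29 and 0.06 to 0.31, and Atp2b4, Kitl, Bex1 and Rgs17 were not.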

How the data were processed

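Single-cell Drop-seq libraries from trigeminal ganglia were prepared in 9 runs. Per the submitters' processing notes the authors used bcl2fastq 2.17, STAR 2.5.3a with mm10 and Seurat 1.4.0.16, and deposited 1 table of UMI counts per gene and barcode without normalization (6997 barcodes, 21536 genes, 30491529 UMIs). The barcode names give no run, so the table was treated as 1 sample and no test, standard error or p-value was computed. The 9 genes, the gene lists and the gates were chosen with earlier results of these data known. Neurons and classes were selected on counts as described in the report, no doublet caller was run, and neurons in several gates were kept in each. Spearman's rho was taken over the CPM of single neurons with at least 2000 UMIs, and a pair was counted at an absolute rho of 0.2. As a background, the same was done for 4444 genes with a UMI in 20% or more of the neurons of each class. Partial rank correlations, thinning to 2000 UMIs, other gates and other depths were tried as alternatives. Ratios carry exact conditional binomial, levels exact Poisson and shares Clopper-Pearson 95% intervals, which cover counting error only.

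Genes were named by a fixed rule: per side, the 12 genes with the largest smallest value when neurons of the 5 classes were ordered by Gap43 rank minus Hspb1 rank, with the same sign in all 5. Class markers, Meg3, Sncg and 6330403K07Rik were named after their values were seen, and some genes that the rule or the lists hold are not reported here. Promoter windows are the 250 bases before the RefSeq start. Calculations used Python 3.11.15, numpy 2.4.6, scipy 1.17.1, pandas 2.3.3 and matplotlib 3.10.9, and the correlation step was tested on simulated data.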

Additional observations from a re-analysis of the deposited data

How the results depend on the processing

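No paired analysis was possible because the barcodes name no run and no result comes from a test. No correlation of Gap43 with Hspb1 or Fxyd2 changed from one side of -0.1 or 0.1 to the opposite one, and the cause of the changes below was not tested. In Mrgprd neurons, thinning to 2000 UMIs left 3 pairs at an absolute rho of 0.2 (background 0.0485%), and Gap43 with Fxyd2 was -0.42 in both partial rank correlations. Gap43 with Hspb1 was -0.02 in neurons of 1 class only and -0.06 where these also had 3 or more UMIs of their markers.

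In Cd34 neurons, Gap43 with Hspb1 was -0.20 after thinning and -0.23 as a Pearson correlation corrected for counting noise. Gap43 with Fxyd2 was -0.48 after thinning and in neurons with an Xist UMI, -0.44 when corrected for counting noise and with at most 1 UMI each of Calca and Nefh, -0.46 in neurons of 1 class only and -0.47 with 3 or more UMIs of their markers. The number of pairs was 7 after thinning and 17 with at most 1 UMI each of Calca and Nefh (backgrounds 0.0909% and 3.59%). Over all alternatives, Gap43 with Fxyd2 ranged from -0.66 to -0.42 in Mrgprd and from -0.68 to -0.44 in Cd34 neurons, and Gap43 with Hspb1 from -0.41 to -0.20 in Cd34 neurons.

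In Trpm8 neurons, the number of pairs was 12 with at least 4000 UMIs (163 neurons, background 2.87%), 0 after thinning (0.519%), 11 with doubled gate minimums (109, 7.03%), 10 in neurons of 1 class only, with or without the marker minimum (69, 12.4%), 10 with a Y-linked UMI (78, 12.5%) and 16 with an Xist UMI (66, 14.8%). The background rose where fewer neurons were left. Gap43 with Hspb1 was 0.03 with at least 4000 UMIs and -0.34 in neurons of 1 class only, with or without the marker minimum. In Calca and Trpv1 neurons, 3 pairs passed with at least 4000 UMIs (0.131%) and 1 with an Xist UMI (1.59%), and Gap43 with Fxyd2 was -0.12 as a Pearson correlation of log2(CPM + 100) and -0.20 when corrected for counting noise. In Nefh neurons, the number of pairs was 8 with at least 4000 UMIs (1.70%), 1 after thinning (0.0902%), 2 in the partial rank correlations without and with ribosomal and pituitary shares (0.596% and 0.376%), 10 with an Xist UMI (7.42%) and 9 with a Y-linked UMI (6.55%). Gap43 with Fxyd2 was 0.02 with doubled gate minimums, 0.03 in neurons of 1 class only and 0.04 with the marker minimum.

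As Pearson correlations corrected for counting noise, 23 pairs in Mrgprd, 28 in Cd34, 19 (of 35 with a value) in Trpm8, 19 in Calca and Trpv1 and 12 in Nefh neurons reached an absolute 0.2, against a background of 69.0%, 66.1%, 67.9%, 58.8% and 61.4% of the gene pairs for which the correction gave a value. In Calca and Trpv1 neurons 7 of the 19 were positive among the 7 genes and 8 negative with Hspb1 or Fxyd2, where the rank correlation had 0 and 0, and in Mrgprd neurons these numbers were 13 and 9, where it had 2 and 3.

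A change of less than 0.1 in rho, or of less than 1.5 times in a number of pairs, was found in 80 of 87 values of Gap43 with Hspb1, 74 of 87 of Gap43 with Fxyd2 and 65 of 87 numbers of pairs. The class CPM of the 9 genes was counted as moved in 34 of 90 alternative values and as the same in 56. Some alternatives kept the same neurons as the main analysis and could not change a value. These were the limit of 5% mitochondrial share in Mrgprd neurons and leaving out barcodes in 2 columns in Cd34, Trpm8 and Nefh neurons. Depth limits these results, since the median neuron had no UMI in 30 of the 45 combinations of gene and class, from 3 of 9 genes in Calca and Trpv1 to 8 of 9 in Trpm8 neurons. Runs, sexes and animals could not be separated within the classes, apart from the neurons with Xist or Y-linked UMIs. Gap43 with Fxyd2 as a result, the restriction to at most 1 UMI each of Calca and Nefh, the marker minimum, the partial correlation with ribosomal and pituitary shares and leaving out barcodes in 2 columns were added after the data were seen.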

Other observations

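When the neurons of the Mrgprd and Cd34 classes were ordered by Gap43 rank minus Fxyd2 rank, an order chosen after the values above were seen, 36 genes had a rho of 0.2 or more and 51 a rho of -0.2 or less in both classes, of 4439. In Mrgprd neurons this order had a rho of 0.59 with mitochondrial share, -0.40 with ribosomal protein share and 0.43 with glial markers, and in Cd34 neurons -0.09, -0.26 and -0.23, and their part in the lists was not tested. Besides Stmn2, Dpysl3 and Fxyd7, the side of Gap43 held Dnmt3a, a DNA methyltransferase, the small GTPase Rhou, the stathmin Stmn3, the tubulins Tubb5 and Tubb2b, and Pcsk2, a prohormone convertase. Nefh, which is also a gate of another class, was on this side too. The side of Fxyd2 held Rgs10, Sncg, the secretory granule protein Scg3, the chaperone Hsp90ab1, the tubulin polymerization protein Tppp3, the channel family member Ano3, and the ribosomal protein gene Rpl9. Gap43 and Fxyd2 themselves set this order, so their own values in it are no finding. The correlations run over neurons of 1 pooled sample and were not tested.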
